A study of Mus musculus with 4 samples.

Results

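The circadian clock genes examined here were the 10 genes *Arntl*, *Clock*, *Per1*, *Per2*, *Per3*, *Cry1*, *Cry2*, *Dbp*, *Bhlhe40* and *Bhlhe41*, taken by gene symbol from the 23997 genes of the deposited RNA-Seq table. All 10 were in the table, and all 10 reached 1 FPKM in one population or both, the filter that 13436 genes passed (the kept genes). The genes were chosen with their values in these cells known, so their differences between the populations are given as a description and without a test. The populations were Lgr5+ progenitors, the EGFP+ cells sorted from P3 cochleae of Lgr5-EGFP-IRES-CreERT2 mice, and Lgr6+ progenitors, sorted likewise from P3 cochleae of Lgr6-EGFP-IRES-CreERT2 mice. Both were labelled as strain C57BL/6, the labels name no treatment, and each was given 2 libraries by the sample labels, whereas the methods describe 3 fractions of one RNA extraction. Libraries made from one extraction share its cells. Each population came from its own reporter line, so the line, the animals, the sort and the cell population cannot be told apart. The time of day at which the cochleae were taken is not given in the sources used here, so a difference in the phase of the clock and a difference in its level cannot be told apart either. The table holds 1 combined FPKM value (fragments per length of transcript, scaled to the number of mapped fragments) for each gene in each population. No value of a single library enters the comparison, so no gene has an error, a spread between replicates or a replicate check. Where a pair of values is given for a gene, the Lgr5+ value comes before the Lgr6+ value.

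The markers of the sorted cells were detected in both populations. *Sox2*, the transcription factor of supporting cells, stood at 139.6 FPKM in Lgr5+ against 54.8 in Lgr6+ progenitors. *Lgr5* had 9.65 and 24.99, so it was higher in the population sorted for Lgr6, and *Lgr6* had 2.06 and 2.90.

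The clock is a feedback loop that most mammalian cells carry. The bHLH-PAS proteins CLOCK and ARNTL (also called BMAL1) bind E-box sequences as a pair and activate the *Per* and *Cry* genes, and the PER and CRY proteins then enter the nucleus and repress that pair. BHLHE40 and BHLHE41 (also called DEC1 and DEC2) are bHLH repressors of the same E-boxes and are themselves targets of the loop, while DBP activates genes with a D-box and carries the rhythm to output genes. Cochlear tissue of the mouse is known to hold such a clock.

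Promoter sequences are shown for the members whose windows held the E-box or the D-box, since these letters are what the proteins of the loop read. The windows, from RefSeq and in the build GRCm38.p6, ran from 250 bases before to 50 bases after each annotated start, and 8 of the 10 genes had at least 1 window, 12 windows in all. The windows of *Bhlhe40* and *Per2* were not analysed here. The 250 bases before the start of 4 genes follow, 5′ to 3′ in the direction of the gene, with E-boxes (CACGTG) or D-boxes (TTATGTAA) in capitals.
Bhlhe41, chr6:145865421-145865670, strand -: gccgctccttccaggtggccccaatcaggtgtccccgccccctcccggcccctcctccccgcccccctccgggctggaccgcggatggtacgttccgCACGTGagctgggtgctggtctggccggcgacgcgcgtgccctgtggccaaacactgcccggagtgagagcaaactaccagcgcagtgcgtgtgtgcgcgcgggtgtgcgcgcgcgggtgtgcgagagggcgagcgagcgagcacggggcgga
Cry1, chr10:85185055-85185304, strand -: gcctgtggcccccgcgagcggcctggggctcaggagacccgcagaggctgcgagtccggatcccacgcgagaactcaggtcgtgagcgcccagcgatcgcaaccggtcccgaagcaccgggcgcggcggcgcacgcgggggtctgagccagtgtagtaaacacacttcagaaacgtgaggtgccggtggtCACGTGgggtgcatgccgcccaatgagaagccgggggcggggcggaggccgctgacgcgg
Per1, chr11:69098699-69098948, strand +: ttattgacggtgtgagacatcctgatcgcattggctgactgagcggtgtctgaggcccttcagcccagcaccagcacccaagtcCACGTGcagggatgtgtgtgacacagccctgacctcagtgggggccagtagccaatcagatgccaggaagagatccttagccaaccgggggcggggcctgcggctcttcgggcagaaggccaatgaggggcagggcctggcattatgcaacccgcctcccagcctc
Per3, chr4:151044666-151044915, strand -: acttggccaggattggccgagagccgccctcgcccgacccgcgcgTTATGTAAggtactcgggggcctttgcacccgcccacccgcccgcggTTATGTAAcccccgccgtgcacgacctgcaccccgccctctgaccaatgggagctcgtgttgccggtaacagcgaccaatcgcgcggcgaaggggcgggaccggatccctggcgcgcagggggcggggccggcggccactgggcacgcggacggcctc

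The E-box CACGTG, which reads the same on both strands, was in the windows of 3 members. Its first base was at position -153 of *Bhlhe41*, -60 of *Cry1* and -166 of *Per1*, counted from the annotated start with the base just before it as -1. Of all 32851 windows in the table, 7.15% held it. The variant CACGTT, searched on both strands and met here as its complement AACGTG, was found at position -79 of *Cry1* and -166 of *Cry2*, and in 4.68% of all windows. The D-box, searched as TTATGTAA and TTACGTAA on both strands, occurred at positions -205 and -158 of *Per3*, and in 1.06% of all windows. The cAMP response element TGACGTCA was in no window of the members and in 1.79% of all windows. No motif overlapped another in the windows of the members, and a match here is a string of letters, not a site shown to be bound.

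**Figure D1:**
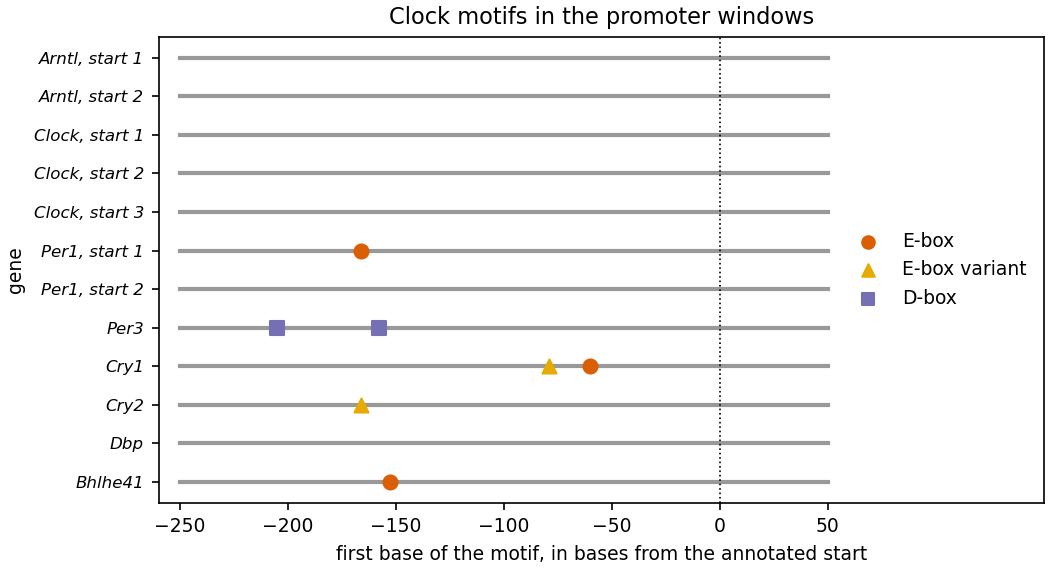
Positions of clock motifs in the 12 promoter windows of 8 clock genes. The x axis gives the first base of each motif in bases from the annotated start (dotted line), each grey line is 1 window, and the symbols mark the E-box, its variant and the D-box. E-boxes stand before the starts of *Per1*, *Cry1* and *Bhlhe41*, and the windows of *Arntl*, *Clock* and *Dbp* hold none of these motifs.

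The 3 members with an E-box did not share a direction, since *Bhlhe41* was lower in Lgr6+ progenitors, *Cry1* was higher there and *Per1* was under 1.5-fold apart. Over the 1152 kept genes with an E-box in a window, 24.4% passed 1.5-fold toward Lgr6+ progenitors and 24.4% passed it toward Lgr5+ progenitors, and the median difference was -0.02. In either direction 48.8% of these genes passed it, beside 50.8% of the 10036 kept genes with any window. Over those 10036 genes the median difference was 0.02. These differences, and all below that carry no other unit, are log2(FPKM + 1) in Lgr6+ progenitors minus log2(FPKM + 1) in Lgr5+ progenitors, so that a negative value means higher in Lgr5+ progenitors. The 1 added to each value makes the differences of low genes smaller than their ratios.

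Of the 10 clock genes, 4 were at least 1.5-fold apart on this scale. *Bhlhe41* was higher in Lgr5+ progenitors, and *Bhlhe40*, *Cry1* and *Per2* were higher in Lgr6+ progenitors. The same 1.5-fold threshold was passed by 51.8% of all kept genes, 28.5% toward Lgr6+ progenitors and 23.3% toward Lgr5+ progenitors, so the members' count lies near this background and is not a result about them. The median difference of the members was 0.30 and their median absolute difference 0.47, beside 0.03 and 0.61 over all kept genes. The members' median was 0.11 under either stricter filter on low values, 0.17 after quantile normalization and 0.55 after scaling to the same sum. At 2-fold, which 29.9% of kept genes passed, 18.2% toward Lgr6+ progenitors and 11.7% toward Lgr5+ progenitors, 3 members remained past the threshold, *Bhlhe41*, *Bhlhe40* and *Cry1*.

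**Figure D2:**
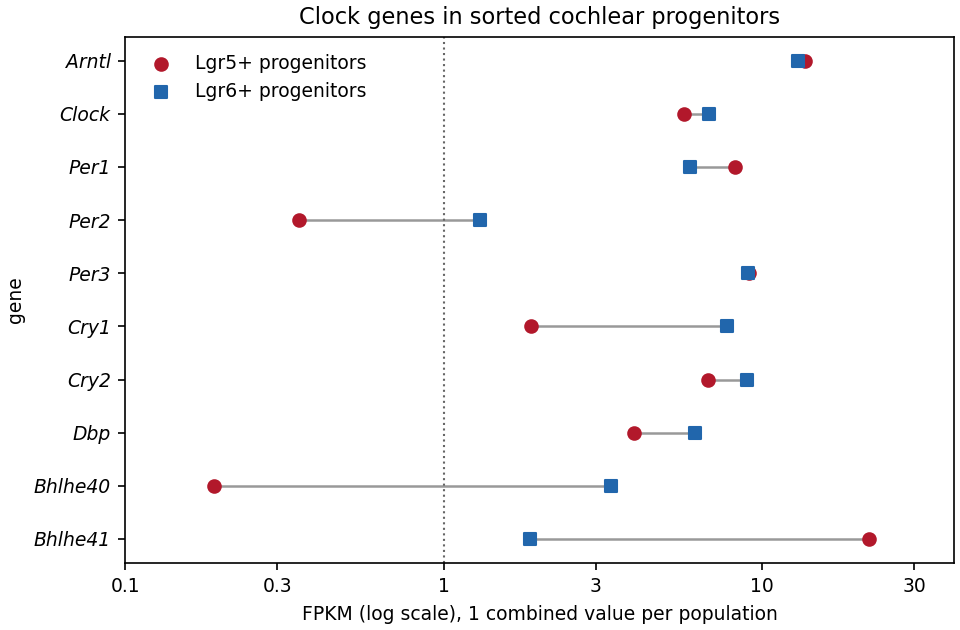
FPKM of the 10 clock genes in Lgr5+ progenitors (red circles) and Lgr6+ progenitors (blue squares), 1 combined value per population on a log axis, with the FPKM of 1 used as a filter as a dotted line. *Bhlhe41* lies at 21.7 in Lgr5+ against 1.87 in Lgr6+ progenitors, *Bhlhe40*, *Cry1* and *Per2* lie lower in Lgr5+ progenitors, and the points of *Arntl* and *Per3* nearly coincide.

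Signs of other cell types moved with the populations. All 8 macrophage markers had their higher value in Lgr6+ progenitors, and they summed to 1.12 FPKM in Lgr5+ against 205 in Lgr6+ progenitors. *C1qb*, *C1qc*, *Tyrobp*, *Csf1r*, *Aif1* and *Ptprc* were listed at 0 in Lgr5+ progenitors. *Ptprc*, at only 0.008 in Lgr6+ progenitors, and *Cx3cr1*, at 0.215 and 0.681, did not pass the filter. All 6 endothelial markers were higher in Lgr6+ progenitors, with sums of 10.9 and 80.7. Hair cell markers summed to 724 and 1202 (8 of 9 higher in Lgr6+ progenitors), markers of mesenchyme and fibrocytes to 320 and 577 (5 of 8), those of Schwann cells and glia to 73.3 and 197 (3 of 6) and those of neurons to 91.8 and 125 (4 of 6). Erythroid markers summed to 629 and 108, with 1 of 5 higher in Lgr6+ progenitors. Pericyte markers summed to 8.25 and 9.04 and melanocyte markers to 0.507 and 3.85. The part of these cells in the values of *Bhlhe40*, *Cry1*, *Per2* and *Bhlhe41* was not tested. In values of sorted pools, fewer cells that express a gene and less RNA per cell cannot be told apart.

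The order of the members also shows where the populations part. In Lgr5+ progenitors *Bhlhe41* had the highest FPKM of the 10 genes, ahead of *Arntl*, *Per3*, *Per1*, *Cry2*, *Clock*, *Dbp*, *Cry1*, *Per2* and *Bhlhe40*. In Lgr6+ progenitors the order was *Arntl*, *Per3*, *Cry2*, *Cry1*, *Clock*, *Dbp*, *Per1*, *Bhlhe40*, *Bhlhe41* and *Per2*. FPKM is per length of transcript, so levels can be set side by side between genes, but with no spread between libraries it is not known which neighbours in these orders differ beyond their error.

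*Bhlhe41*, on chromosome 6 from 145858243 to 145865420, stood at 21.7 FPKM in Lgr5+ against 1.87 in Lgr6+ progenitors. The Lgr5+ value was 11.6 times the Lgr6+ value, and the difference was -2.99. Of the 13436 kept genes, 45 had a lower difference, and of the 11177 that reached 1 FPKM in each of the populations, 8 did. Its level moved from above 70.7% of the kept genes in Lgr5+ progenitors to above 13.7% of them in Lgr6+ progenitors. No other member changed place as far.

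*Bhlhe40*, the closest relative of *Bhlhe41*, lies on the same chromosome from 108660629 to 108666925 and went the other way. Its values were 0.190 in Lgr5+ against 3.35 in Lgr6+ progenitors, a ratio of 17.7 and a difference of 1.87. Of the kept genes, 744 had a higher difference, so it stood less far out than *Bhlhe41* although its ratio was larger. The ratio rests on a value close to 0, and without a pseudocount the difference was 4.14. *Bhlhe40* and *Per2* passed the filter through their Lgr6+ values alone, so their direction was already set by the filter.

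Taken as a pair, *Bhlhe40* and *Bhlhe41* summed to 21.9 FPKM in Lgr5+ against 5.22 in Lgr6+ progenitors, 4.201 times as much in the former. *Bhlhe41* made up 99.1% of this sum in Lgr5+ against 35.8% in Lgr6+ progenitors, so the more abundant relative was *Bhlhe41* in Lgr5+ progenitors and *Bhlhe40* in Lgr6+ progenitors.

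**Figure D3:**
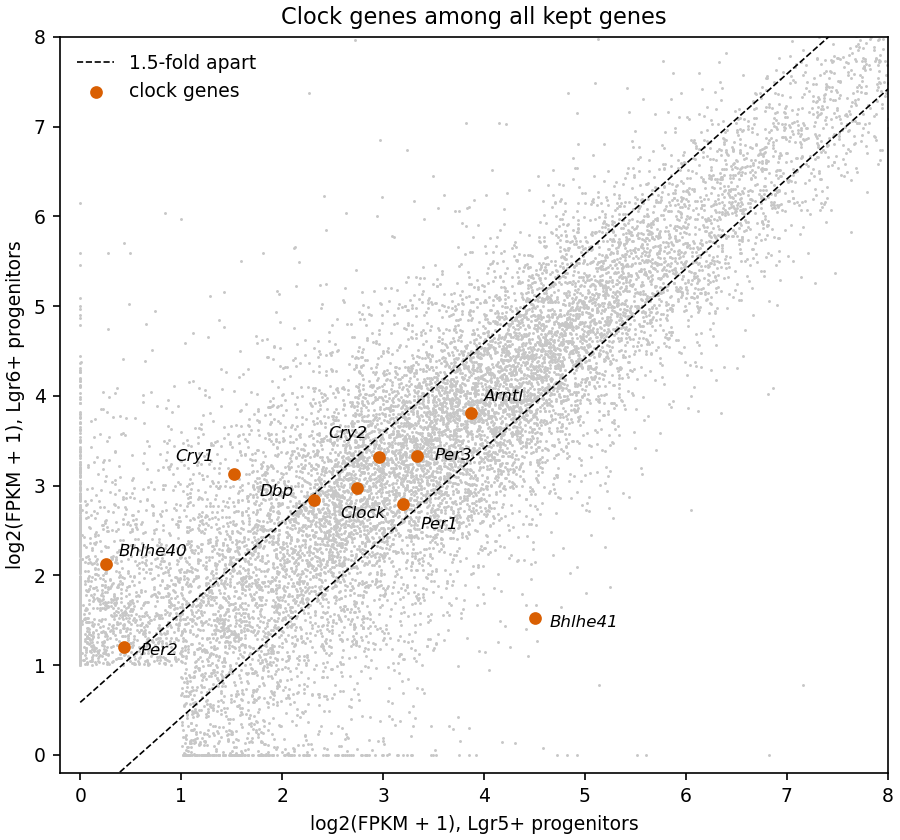
Log2(FPKM + 1) in Lgr6+ progenitors against that in Lgr5+ progenitors for the kept genes (grey), with the 10 clock genes in orange and dashed lines at 1.5-fold. *Bhlhe41* lies far below the lines with a difference of -2.99, *Bhlhe40* and *Cry1* lie above them, and 505 genes with values beyond the axis end of 8 are not drawn.

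A rough number of fragments behind each value can be read from the lowest genes, whose values repeat at multiples of a smallest unit. The product of FPKM and transcript length in kilobases, less 200 bases, lay within 1% of 0.128 for 59 genes with 1 annotated transcript in Lgr5+ progenitors, where neighbouring windows of the same width held 3.75 on average. For Lgr6+ progenitors the unit was 0.0403, with 22 genes and 3.25 in the neighbouring windows. Taking the unit as 1 fragment, the Lgr6+ values rest on 3.18 times as many fragments in all. In such units, and with the longest coding transcript as the length, *Bhlhe41* stood at about 1008 in Lgr5+ against 275 in Lgr6+ progenitors. *Bhlhe40* stood at about 4.32 and 242, *Per2* at 15.5 and 182, and *Cry1* at 41.2 and 542. The low Lgr5+ values of *Bhlhe40* and *Per2* thus rest on few fragments, and those of *Bhlhe41* on many in both populations. The fragments were amplified without molecular identifiers, so they are not independent molecules and no counting interval is given.

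The next genes of the table on either side of *Bhlhe40* and *Bhlhe41* are given beside them. *Itpr1*, before *Bhlhe40*, stood at 4.995 FPKM in Lgr5+ against 4.13 in Lgr6+ progenitors, under 1.5-fold apart. *Arl8b*, after *Bhlhe40*, stood at 20.4 against 12.3. *Rassf8*, 40658 bases before *Bhlhe41*, was at 0.167 in Lgr5+ progenitors and listed at 0 in Lgr6+ progenitors, and *Sspn*, 68726 bases after it, was at 0.031 and 0.531, so both were under the filter. The noncoding gene *0610040F04Rik*, which shares 306 bases with *Bhlhe40*, was listed at 0 and at 0.181.

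Likeness of pattern to these relatives was measured by the distance between both log2(FPKM + 1) values, and so over 2 values only. The kept genes nearest to *Bhlhe41* were *Cd83*, *Nkain4* and *Gap43*, at distances of 0.150, 0.156 and 0.178, and 4 genes lay within 0.25 of it. For *Bhlhe40* the nearest were *Ogg1*, *Col25a1* and *Pde2a*, at distances of 0.019, 0.035 and 0.054, and 80 genes lay within 0.25. The pattern of *Bhlhe40* was thus a common one at low FPKM and that of *Bhlhe41* was not.

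The activators of the loop showed little difference. *Arntl*, whose product is the partner of CLOCK, lies on chromosome 7 from 113178471 to 113314126 and stood at 13.6 FPKM in Lgr5+ against 13.0 in Lgr6+ progenitors, a difference of -0.07. *Clock*, on chromosome 5 from 76209868 to 76305603, had 5.69 and 6.83, a difference of 0.23. The table gives *Clock* one interval with *Tmem165*, at 43.4 and 45.5, and with *Nmu*, *Pdcl2* and *Mir1191*, none of which overlap it in RefSeq. *Arntl* and *Clock* summed to 19.3 in Lgr5+ against 19.8 in Lgr6+ progenitors, a ratio of 1.03. Among their relatives, *Npas2*, which can stand in for *Clock*, was under an FPKM of 0.04 in both populations, with values of 0.036 and 0.013. *Arntl2*, a relative of *Arntl*, stood at 1.31 FPKM in Lgr5+ against 5.54 in Lgr6+ progenitors, a difference of 1.503, and made up 8.77% and 29.9% of the sum of both *Arntl* genes.

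The *Per* genes, which encode the repressors that pair with CRY, differed little in sum. They summed to 17.7 FPKM in Lgr5+ against 16.3 in Lgr6+ progenitors. *Per1*, on chromosome 11 from 69095108 to 69109965, had 8.20 and 5.93, a difference of -0.41. *Per3*, on chromosome 4 from 150997018 to 151044707, had 9.13 and 9.05, a difference of -0.01, and was the most abundant *Per* gene in both populations. *Per2*, on chromosome 1 from 91415977 to 91459351, was the least abundant, with 0.352 and 1.30, a difference of 0.77. It made up 1.99% of the *Per* sum in Lgr5+ against 8.01% in Lgr6+ progenitors, and after quantile normalization its difference was under 1.5-fold, at 0.31.

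The *Cry* genes encode the main repressors of the pair CLOCK and ARNTL. *Cry1*, on chromosome 10 from 85131700 to 85185054, stood at 1.87 FPKM in Lgr5+ against 7.75 in Lgr6+ progenitors, a ratio of 4.14 and a difference of 1.61. Of the kept genes, 1058 had a higher difference. *Cry2*, on chromosome 2 from 92403646 to 92434085, had 6.76 and 8.99, a difference of 0.36. *D930015M05Rik*, which shares 23417 bases with *Cry2*, was at 0 and 0.237. *Cry1* accordingly made up 21.7% of the *Cry* sum in Lgr5+ against 46.3% in Lgr6+ progenitors, and that sum was 8.64 and 16.7. The 5 *Per* and *Cry* genes together summed to 26.3 in Lgr5+ against 33.0 in Lgr6+ progenitors. This sum leaves out the repressors *Bhlhe40* and *Bhlhe41*, whose own sum went the other way, at 21.9 and 5.22.

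*Dbp*, on chromosome 7 from 45705100 to 45710203, stood at 3.97 FPKM in Lgr5+ against 6.17 in Lgr6+ progenitors, a difference of 0.53 that stayed just under the threshold of 0.58. With a pseudocount of 0.1 it passed, at 0.62. *Dbp* overlaps *Sphk2* by 741 bases, and *Sphk2* had 13.2 and 11.3. The library kit does not mark the strand, so reads from the shared bases cannot be told apart. *Tef*, a relative of *Dbp* that binds the same D-box, was the most abundant of this family, with 34.9 and 30.01, a difference of -0.21. *Hlf*, the third of these activators, had 1.10 and 1.77, a difference of 0.40, and *Nfil3*, a repressor at D-boxes, had 1.25 and 5.26, a difference of 1.48.

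**Figure D4:**
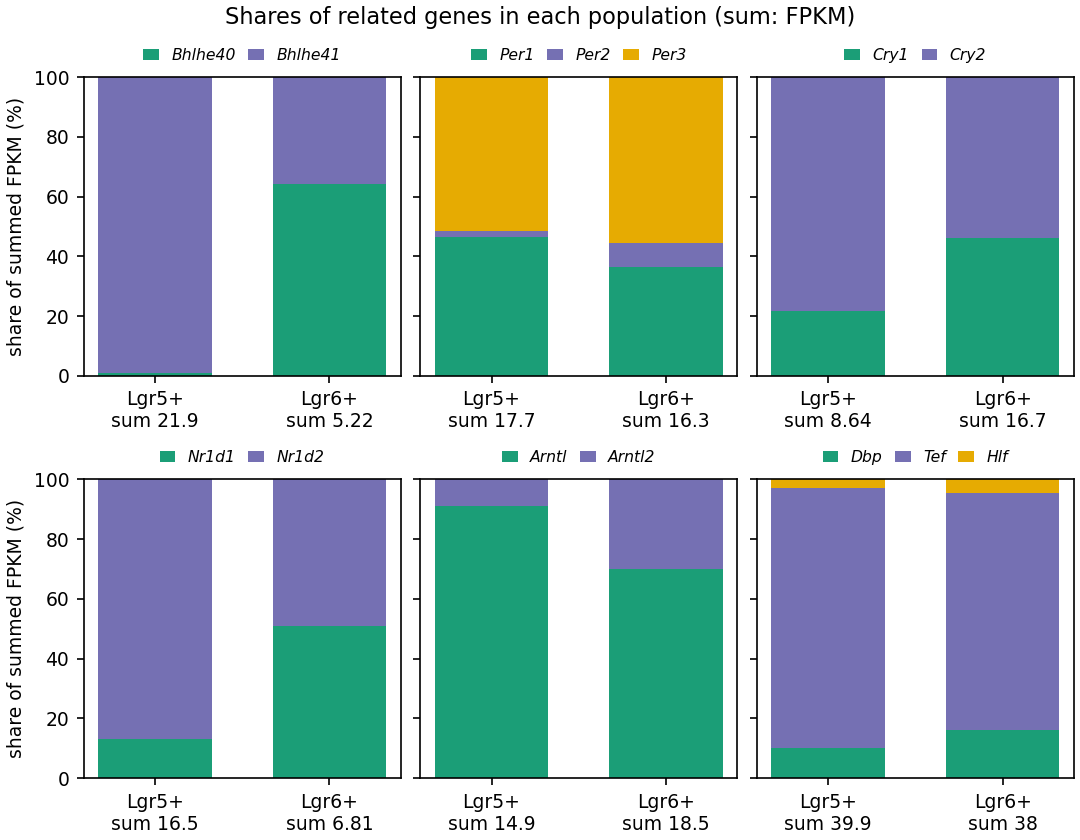
Share of the summed FPKM that each gene took within 6 groups of related clock genes, in percent, with the sum of FPKM under each bar. *Bhlhe41* takes 99.1% of its pair in Lgr5+ against 35.8% in Lgr6+ progenitors, *Cry1* goes from 21.7% to 46.3%, and *Nr1d2* goes from 86.9% to 49.1%.

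Beyond the 10 genes, 28 other genes of the clock were listed, and 26 of them passed the filter. Of these, 5 passed 1.5-fold toward Lgr6+ progenitors and 6 passed it toward Lgr5+ progenitors, so 42.3% passed the threshold beside the 51.8% of all kept genes. Their median difference was 0.05. When both columns were scaled to the same sum of FPKM, which moved the median of all kept genes from 0.03 to 0.28, the numbers were 10 and 5, and among all kept genes the share of those past the threshold that were higher in Lgr6+ progenitors went from 55.0% to 69.0%. Under that scaling 6 of the 10 members and 57.7% of the kept other clock genes passed it, beside 54.8% of all kept genes. The members added to the 4 were *Dbp* and *Cry2*.

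The nuclear receptors of the clock compete for the same elements, at which REV-ERB proteins (*Nr1d1* and *Nr1d2*) repress *Arntl* and ROR proteins activate it. *Nr1d2* stood at 14.3 FPKM in Lgr5+ against 3.34 in Lgr6+ progenitors, a difference of -1.82. *Nr1d1* had 2.16 and 3.46, a difference of 0.50, so that *Nr1d2* made up 86.9% of the pair in Lgr5+ against 49.1% in Lgr6+ progenitors. *Rora*, at 10.7 and 10.6, and *Rorb*, at 2.78 and 3.88, were under 1.5-fold apart.

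The 3 repressors and partners of the loop outside these families were under 1.5-fold apart on the log2(FPKM + 1) scale. *Ciart* (also called CHRONO), a repressor of CLOCK and ARNTL, had an FPKM of 1.90 in both populations. *Cipc*, which binds CLOCK, had 16.2 in Lgr5+ against 10.8 in Lgr6+ progenitors, a difference of -0.55 that was -0.59, just past the threshold, without a pseudocount. *Timeless* had 1.45 and 1.73.

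Kinases, ligase subunits and other enzymes act on the clock proteins, many of them on the stability of PER and CRY. Of 15 such genes 14 passed the filter, 5 passed 1.5-fold toward Lgr5+ progenitors and 2 passed it toward Lgr6+ progenitors, so 7 of 14 passed it beside 51.8% of all kept genes, and their median difference was -0.09 (0.17 after scaling to the same sum). *Csnk1d* and *Csnk1e*, the casein kinases that phosphorylate PER, stood at 63.3 and 75.1 FPKM in Lgr5+ against 17.9 and 33.4 in Lgr6+ progenitors, differences of -1.77 and -1.15. The catalytic subunits of casein kinase 2, *Csnk2a1* and *Csnk2a2*, had 33.1 and 10.04 in Lgr5+ against 16.2 and 5.24 in Lgr6+ progenitors. *Fbxw11*, a ligase subunit that recognises PER, had 28.8 and 16.6, a difference of -0.76 that was under the threshold, at -0.52, after scaling to the same sum. Its relative *Btrc*, at 17.3 and 20.04, was under 1.5-fold apart.

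Toward Lgr6+ progenitors, *Prkaa2*, a catalytic subunit of the AMP-activated kinase that marks CRY for degradation, had 5.42 and 13.8, a difference of 1.202, and its relative *Prkaa1* had 6.86 and 5.69. *Sirt1*, a deacetylase that binds CLOCK, had 4.71 and 10.2, a difference of 0.97. *Csnk1a1*, at 105 and 104, *Csnk2b*, at 118 and 127, and *Gsk3b*, at 13.3 and 11.9, were nearly level. *Usp2*, a deubiquitinase, had 9.72 and 13.6, and *Fbxl21*, which did not pass the filter, was at 0 for Lgr5+ progenitors and at 0.432 for Lgr6+ progenitors.

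**Figure D5:**
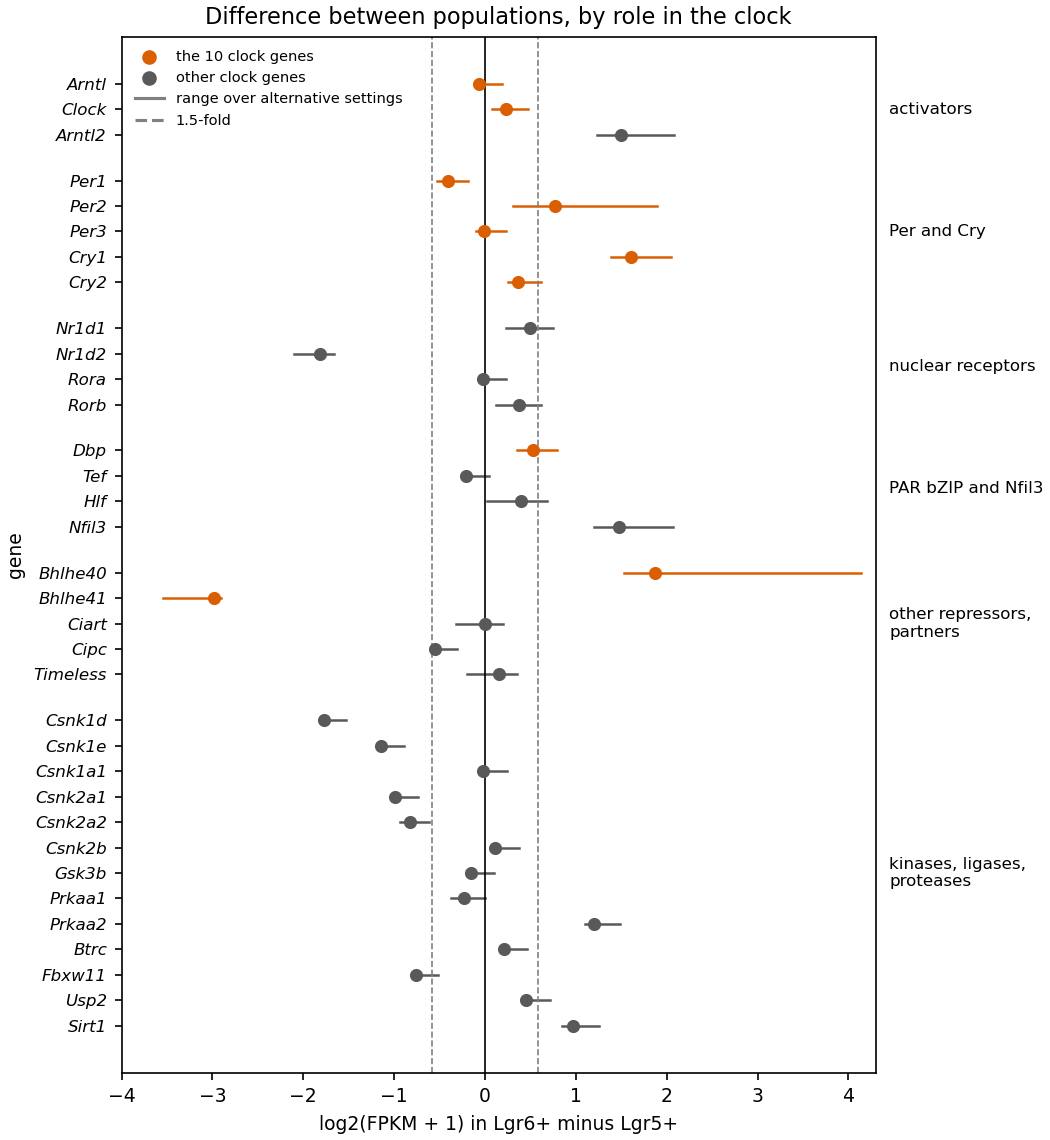
Log2(FPKM + 1) in Lgr6+ minus Lgr5+ progenitors for the 10 clock genes (orange) and the other clock genes described in the text that passed the filter (grey), grouped by role. Points are the values as reported, horizontal lines the range over the alternative settings and dashed lines 1.5-fold. The lines of *Bhlhe41*, *Bhlhe40* and *Cry1* stay beyond the dashed lines, as do those of several other clock genes, among them *Nr1d2* and *Csnk1d*.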

How the data were processed

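Cells sorted for EGFP from cochleae of both reporter lines were turned by the authors into low-input SMART-Seq v4 libraries and sequenced. Per the labels and the methods, the authors' tools were Trimmomatic for trimming, TopHat for mapping and Cufflinks for FPKM, with no versions given in the sources used here. The deposited FPKM values are 1 combined value per population, normalized for transcript length and mapped fragments. The paper gives only a range of read numbers and mapped shares over its samples, so the depth of each single library is unknown. Columns with the authors' own fold changes, p-values and q-values were not used. The methods name mm9 and the labels mm10. The intervals of all 10 members overlapped their gene in GRCm38 and 1 of 10 did in NCBIM37, so positions are those of RefSeq in GRCm38. Table intervals of *Clock*, *Cry2*, *Dbp* and *Bhlhe40* also span neighbouring genes.

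Members and gene lists were chosen with earlier results of these data known. Genes that reached 1 FPKM in one population or both were kept, and log2(FPKM + 1) was compared between populations at 1.5-fold, with no test. Named genes were all members and listed clock genes except some that are counted with their list but not reported here by name, in other gene lists up to 2 genes with the largest difference in each direction, the 3 genes nearest in pattern to *Bhlhe40* and *Bhlhe41*, and their neighbours. Of the marker lists, *Lgr5*, *Lgr6*, *Sox2* and the macrophage, mesenchyme, glial and neuronal markers given by name are outside this rule, chosen after their values were seen. *Egln3*, named because of the filter, is outside it too. Alternatives were other filters, pseudocounts of 0.1 and none, columns made equal by quantiles, by upper quartile or by sum, and 2-fold. The work was done in Python 3.11.15 with pandas 2.3.3, numpy 2.4.6 and matplotlib 3.10.9 and was tested on simulated data.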

Additional observations from a re-analysis of the deposited data

How the results depend on the processing

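*Bhlhe41*, *Bhlhe40* and *Cry1* stayed at least 1.5-fold apart in the same direction under all alternatives that gave them a value. So did the other clock genes *Arntl2*, *Nr1d2*, *Nfil3*, *Csnk1d*, *Csnk1e*, *Csnk2a1*, *Csnk2a2*, *Prkaa2* and *Sirt1*, so this was not particular to the members. The difference ranged from -3.54 to -2.91 for *Bhlhe41*, from 1.53 to 4.14 for *Bhlhe40* and from 1.39 to 2.05 for *Cry1*. *Per2* ranged from 0.31 to 1.89, *Cry2* from 0.26 to 0.62 and *Dbp* from 0.35 to 0.79. *Arntl* and *Per3* turned to 0.18 and 0.23 when scaled to the same sum, *Tef* to 0.05, *Rora* to 0.23, *Csnk1a1* to 0.24 and *Gsk3b* to 0.099. After quantile normalization *Ciart*, *Timeless* and *Csnk1a1* turned to -0.32, -0.20 and 0.12. *Nr1d1* and *Hlf* passed 1.5-fold with the smaller pseudocount or none (0.64 to 0.68), and after scaling to the same sum *Nr1d1*, *Hlf*, *Rorb* and *Usp2* did, at 0.75, 0.63, 0.62 and 0.71. A filter at 5 FPKM, or at 1 FPKM in each of the populations, left 8 members, of which 2 were at least 1.5-fold apart, since *Bhlhe40* and *Per2* are then not kept. Of all genes left by these filters, 48.2% of 10013 and 43.9% of 11177 passed the same threshold. At 2-fold, 7 other clock genes and 4018 of all kept genes passed, in place of 11 and 6962. No paired analysis was possible because the table holds 1 combined value per population, and for the same reason no replicate could be left out. Among the 10 members, depth limits the low Lgr5+ values of *Bhlhe40* and *Per2* most.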

Other observations

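*Bhlhe40* and *Bhlhe41* are relatives of the hairy-related bHLH genes, most of which are effectors of Notch signalling. Of 10 such genes 7 were kept, and 5 passed 1.5-fold toward Lgr5+ progenitors and 2 toward Lgr6+ progenitors, with a median difference of -0.90 that was -0.44 with no filter on low values. *Hes5* stood at 505 FPKM in Lgr5+ against 91.7 in Lgr6+ progenitors and *Hey2* had 19.02 and 3.48, both in the direction of *Bhlhe41*. *Heyl* had 6.50 and 11.2, and *Hes7*, listed at 0 for Lgr5+ progenitors, had 1.84 for Lgr6+ progenitors. Of the 4 *Id* genes, whose products block bHLH activators, *Id1* and *Id3* had 1143 and 1523 in Lgr5+ against 488 and 878 in Lgr6+ progenitors, while *Id4* had 22.4 and 51.8 and *Id2* had 283 and 337. All 7 kept hairy-related genes and 3 of the 4 *Id* genes thus passed 1.5-fold, beside 51.8% of all kept genes. *Hes7* passed the filter through its Lgr6+ value alone, so its direction was already set by the filter. The *Id* genes had a median difference of -0.27, which was 0.09 after quantile normalization.

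*Bhlhe40*, *Bhlhe41* and *Per1* are also known to respond to acute signals, and 3 lists of such targets were set beside them. Of all kept genes, 51.8% passed 1.5-fold, and in these lists 10 of 16 immediate early, 7 of 14 hypoxia-induced and 3 of 5 glucocorticoid-induced genes did. Of 16 immediate early genes, 9 passed 1.5-fold toward Lgr5+ progenitors and 1 toward Lgr6+ progenitors, with a median difference of -0.65. *Egr2* had 62.5 and 19.7 and *Fosl2* had 3.70 and 0.121, whereas *Zfp36* had 20.7 and 41.8 and *Jund* had 40.7 and 50.1. Of 14 hypoxia-induced genes, 4 passed 1.5-fold toward Lgr5+ progenitors and 3 toward Lgr6+ progenitors, with a median difference of -0.32. Toward Lgr5+ progenitors stood *Vegfa*, at 38.2 and 12.3, and *Adm*, at 5.40 and 2.09, and toward Lgr6+ progenitors *Car9*, at 0.219 and 14.8, and *P4ha1*, at 4.41 and 10.7. *Fosl2* and the hypoxia-induced gene *Egln3*, at 1.40 and 0.427, passed the filter through their Lgr5+ values alone. *Car9* passed it through its Lgr6+ value alone. The filter had thus already set the directions of *Fosl2*, *Egln3* and *Car9*. Of 6 glucocorticoid-induced genes 5 were kept, and 3 passed 1.5-fold toward Lgr5+ progenitors. *Fkbp5* had 6.90 and 2.71, *Tsc22d3* had 30.97 and 19.8 and *Errfi1* had 7.48 and 10.9, and the median difference of this list was -0.59. After scaling to the same sum the medians of the immediate early, hypoxia-induced and glucocorticoid-induced genes were -0.39, -0.07 and -0.35, and after quantile normalization -0.37, -0.22 and -0.61.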
